A study of Canis lupus familiaris with 4 samples.

Results

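Genes of mitosis and of the G2/M transition were examined in cultured mesenchymal stromal cells (MSCs) from the adipose tissue of dogs. The members were 45 genes named by symbol, and 41 of them were found among the 30951 genes of the table. CCNB1, MAD2L1, BIRC5 and PTTG1 were not analysed here, because no row carried those symbols. The study holds 1 group of 4 libraries, each from the total RNA of a separate primary cell line of 1 dog (dogs 1 to 4). All cells were untreated and were kept for 48 h in multiwell plates, in medium with 10% fetal bovine serum. MSCs are plastic-adherent stromal progenitor cells that divide in culture. With 1 culture and 1 library per dog, a difference between dogs includes differences between cultures and libraries, and the labels used here give neither passage number nor cell density. The labels set no conditions against each other, so the comparisons made were of each gene with the rest of its library and of the 4 dogs with one another.

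A cell enters mitosis when CDK1, bound to cyclin A or B, is switched on by CDC25 phosphatases. Condensed chromosomes then attach to the spindle through their kinetochores, and the spindle checkpoint holds the anaphase-promoting complex in check until all are attached. That complex then marks cyclin B and securin for destruction, separase cuts the cohesin rings, and the cell divides by cytokinesis. Most of these genes are transcribed in late S phase, G2 and mitosis, under B-MYB and FOXM1, and are shut off by the DREAM repressor complex in resting cells, so that their RNA in bulk tracks the dividing cells of a culture.

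Reads assigned to genes ranged from 7474011 in dog 4 to 22411268 in dog 1, and 17200 genes had reads in at least 2 of the 4 libraries and were called detected. Values are given as normalized reads (reads divided by the size factor of the library) or as a level, the deposited log2 value minus the median over detected genes of the same library. Transcript length enters both, so the order of levels between genes is not an order of transcript numbers. Comparisons between dogs set each gene against itself, while the level test against the median gene makes no allowance for length. Of 10 MSC markers, 9 passed the level test on the high side of the median gene and NT5E on the low side. Of 7 measured leukocyte markers 5 were not detected, CD68 was below the median gene and CD79A was above it. In the RefSeq dog annotation (UU_Cfam_GSD_1.0), of another build than that of the reads, CD79A lies next to the ribosomal protein gene RPS19. Whether that has a part in the level of CD79A was not tested. Of 6 endothelial markers 5 were detected, 3 below the median gene and 2 neither, VWF among those with reads in every dog. Of 4 measured epithelial markers 2 were detected, 1 below and 1 neither, and KRT18 had reads in every dog. The endothelial marker PECAM1 and the epithelial marker CDH1 had 0 reads in every dog, which allows up to 0.401 CPM (counts per 1e+06 assigned reads) in the shallowest library, taking 3 reads as the limit.

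Most mitosis genes had the same extreme dogs, with the highest value in dog 3 and the lowest in dog 4. All 41 had reads in all 4 libraries. Dog 4 held the lowest value for 38 of the 41 genes, while it was lowest for 30.4% of the 13834 genes with reads in every dog and for 28.8% of all detected genes. Dog 3 held the highest value for 28 genes, against 23.9% of the genes with reads in every dog and 23.4% of all detected genes. Both held for 26 genes (63.4%), against 12.2% of genes with reads in every dog and 12% of detected genes. No member was highest in dog 4, which was the highest dog for 35.5% of genes with reads in every dog and 36.8% of detected genes. Dog 1 was highest for 9 members (background 23.9%, or 22.4% of detected genes) and dog 2 for 4 (background 16.7% and 17.4%). Dog 1 was lowest for 3 members (background 22.3% and 19.7%), and dogs 2 and 3 were lowest for none, beside 20.3% and 27% of genes with reads in every dog and 20.3% and 31.1% of detected genes. These are descriptions, since 1 library per dog allows no test between dogs.

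The size of the shift was about 1 log2 unit between the extreme dogs. The median member deviated from its own mean over the 4 dogs by 0.11 in dog 1, 0.10 in dog 2, 0.34 in dog 3 and -0.48 in dog 4 (log2). The same medians over all detected genes were 0.01, 0.00, -0.03 and 0.04. Summed over the members, 1179, 1311, 1619 and 773 CPM were assigned to mitosis genes in dogs 1 to 4 (1220.4 ± 350.6, SD, n = 4), so dog 3 had 2.09 times the sum of dog 4. In bulk RNA, fewer dividing cells and less RNA of these genes per dividing cell cannot be told apart.

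**Figure D1:**
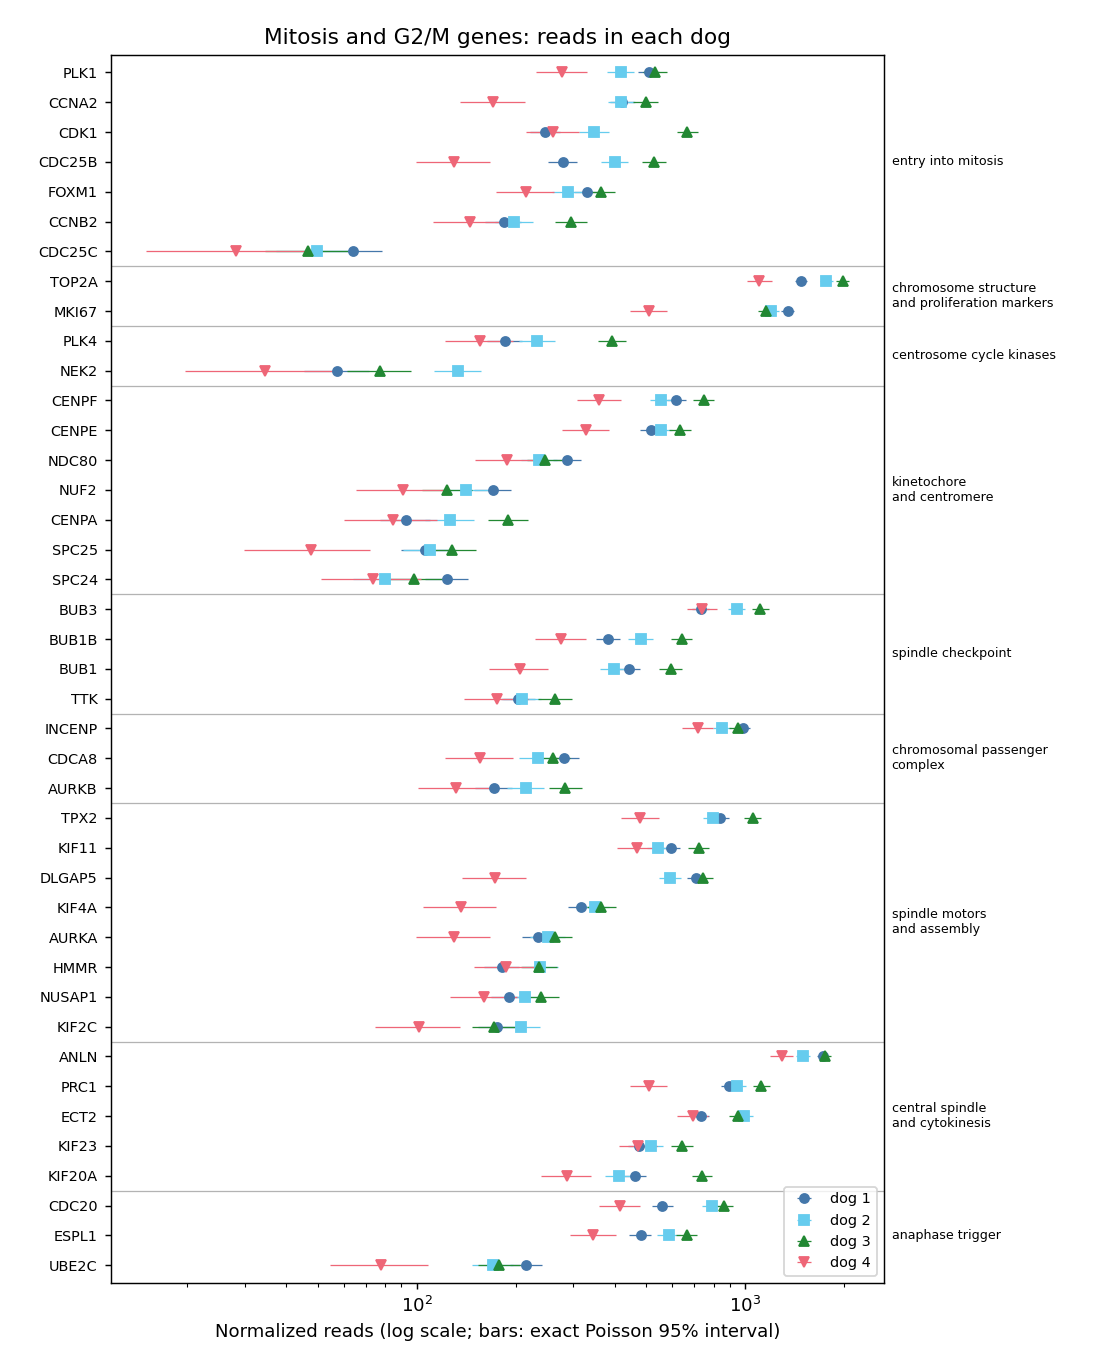
Normalized reads of the 41 mitosis and G2/M genes (x axis, log scale) in each dog, grouped by role; points are single libraries and bars are exact Poisson 95% intervals, which cover counting error only. The red triangles of dog 4 lie at the left for 38 genes and the green triangles of dog 3 at the right for 29, which is 1 more than by level because ANLN has slightly more normalized reads in dog 3 than in dog 1.

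Among the genes that start mitosis, 6 of 7 were highest in dog 3 and 6 of 7 lowest in dog 4. CDK1, the kinase that drives entry, had 246, 347, 666 and 260.2 normalized reads in dogs 1 to 4. Dog 3 stood alone at the top, and dogs 1 and 4 were close together at the bottom, which makes CDK1 one of 3 members whose lowest library was dog 1. CDC25B, a phosphatase that activates CDK1, had 278, 400.5, 529 and 130.1 normalized reads, a 4.06-fold span between dogs 3 and 4. Its relative CDC25C was sparse and ordered differently, at 63.9, 49.8, 46.8 and 28.2, with the most in dog 1 and only 13 reads behind the value of dog 4. Dog 4 was the lowest for both phosphatases. For CDC25C the counting intervals of dogs 1 to 3 overlapped one another, and that of dog 4 overlapped those of dogs 2 and 3.

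The cyclins followed the same order at the extremes. CCNA2, cyclin A2, which pairs with CDK1 and CDK2 from S phase on, had 422, 419.8, 498 and 171 normalized reads. Dogs 1 to 3 lay close together and dog 4 lay well below them. The cyclin B gene CCNB2 had 184, 198, 296 and 145, with dog 3 apart at the top instead. PLK1, the polo kinase that promotes entry and spindle assembly, had 509, 418, 533 and 278. FOXM1, the transcription factor of G2/M genes, had 330.4, 289, 363 and 215. Dogs 1 and 3 were close for PLK1 and FOXM1, and dog 4 was lowest for both.

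Both general markers of proliferation were lower in dog 4. TOP2A, the topoisomerase that untangles sister chromosomes, had 1478, 1759.7, 1976 and 1102 normalized reads. MKI67, which encodes the Ki-67 antigen that coats mitotic chromosomes, had 1345, 1196, 1158 and 507. Dogs 1 to 3 lay close together for MKI67, and dog 4 was below 0.5 times any of them. The kinases of the centrosome cycle did not share an order above dog 4. PLK4, which triggers centriole duplication, had 185, 233, 394 and 156, highest in dog 3, and NEK2, which splits the centrosomes, had 57.5, 134, 77.3 and 34.7, highest in dog 2.

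Kinetochore and centromere genes were lowest in dog 4 for 7 of 7 members, but split over which dog was highest. CENPF, a late kinetochore protein, had 617, 555, 747 and 360.0 normalized reads, and CENPE, the kinesin that moves chromosomes to the spindle equator, had 516, 553, 634 and 327. CENPA, the histone variant that marks the centromere, had 92.7, 126, 190.0 and 84.6, with dogs 1 and 4 inside each other's counting intervals. Dog 3 was highest for these 3 genes.

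The NDC80 complex, the rod that binds microtubule ends, had another order. NDC80 had 287, 236, 246 and 189 normalized reads, NUF2 had 170.2, 141, 124 and 91.1, and SPC24 had 124, 80.3, 98.3 and 73.7, so dog 1 was highest for 3 of the 4 subunits. The fourth, SPC25, was highest in dog 3, at 106, 109.8, 128 and 47.7. Dog 1 was apart from the other dogs beyond the counting intervals for none of the 4.

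All 4 spindle checkpoint genes were highest in dog 3. BUB1, a kinase that recruits the checkpoint to kinetochores, had 443, 398, 593 and 206 normalized reads. BUB1B, which encodes the checkpoint protein BUBR1, had 383, 481, 639.6 and 275, and TTK, the kinase at the top of the checkpoint, had 204, 209, 263 and 176. TTK varied least of these, and its values in dogs 1, 2 and 4 had overlapping counting intervals. BUB3, which carries BUB1 and BUBR1 to kinetochores and is needed throughout the cell cycle, had 731, 940.3, 1111 and 739.5, so dogs 1 and 4 were level.

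The chromosomal passenger complex, which corrects faulty attachments, was measured in 3 of its 4 genes. AURKB, its kinase, had 172, 215, 284 and 132 normalized reads, a 2.14-fold span with dog 3 at the top. INCENP, the scaffold, had 981, 849.8, 949 and 718, and spanned only 1.37-fold. CDCA8, which encodes borealin, had 282, 233, 259.7 and 156. INCENP and CDCA8 were highest in dog 1 and were lowest, with AURKB, in dog 4.

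Spindle genes held the largest and the smallest spans of all members. DLGAP5, a microtubule-binding spindle protein, had 706, 589.6, 745 and 173 normalized reads, 4.29 times as many in dog 3 as in dog 4. HMMR, a spindle assembly factor that also binds hyaluronan, had 182, 238, 236 and 187, a span of 1.31-fold, and dog 1 was its lowest library. KIF4A, a kinesin of chromosome arms and midzone, had 317, 349, 365 and 137, and AURKA, the centrosomal aurora kinase, had 233, 251, 263 and 130.1. In KIF4A, AURKA and DLGAP5 dogs 1 to 3 formed a close group and dog 4 lay apart. By Dixon's 95% critical value dog 4 stood apart as the lowest library for 4 members, these 3 and CCNA2, as it did for 1.81% of genes with reads in every dog. Any 1 library stood apart for 5.99% of those genes.

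The remaining spindle genes had the same lowest dog. TPX2, which activates AURKA on the spindle, had 839, 794, 1055 and 479 normalized reads. KIF11, the motor that pushes spindle poles apart, had 592, 543, 721 and 468. KIF2C, which takes microtubules apart at kinetochores, had 175, 208, 172 and 102, the only one of the 4 here to be highest in dog 2, and NUSAP1, a microtubule bundler, had 191, 213, 239.6 and 160.5.

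Genes of the central spindle and of cytokinesis were lowest in dog 4 for 5 of 5 members, in part by little. ANLN, the scaffold of the contractile ring, had 1722, 1493, 1745 and 1290.3 normalized reads, a span of 1.35-fold. KIF23, a subunit of centralspindlin, had 476, 518, 642 and 473, and ECT2, which centralspindlin recruits to activate RhoA, had 731, 992, 948 and 692. In KIF23 and ECT2 dogs 1 and 4 had overlapping counting intervals. The other members of this role spanned more. KIF20A, a kinesin of the midzone, had 461, 412, 738 and 286, and PRC1, the bundler of midzone microtubules, had 892, 942, 1119 and 509.6. The median SD of the level over the 5 genes was 0.24, against 0.40 over all members.

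Genes that trigger anaphase were lowest in dog 4 throughout. CDC20, which activates the anaphase-promoting complex, had 559.6, 789.9, 859 and 414 normalized reads. UBE2C, the ubiquitin-conjugating enzyme of that complex, had 215, 171, 179 and 78.1, with the most in dog 1. ESPL1, the protease separase, had 479.8, 584, 663 and 345. Dog 4 lay below the other 3 dogs beyond the counting intervals for each of these genes.

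**Figure D2:**
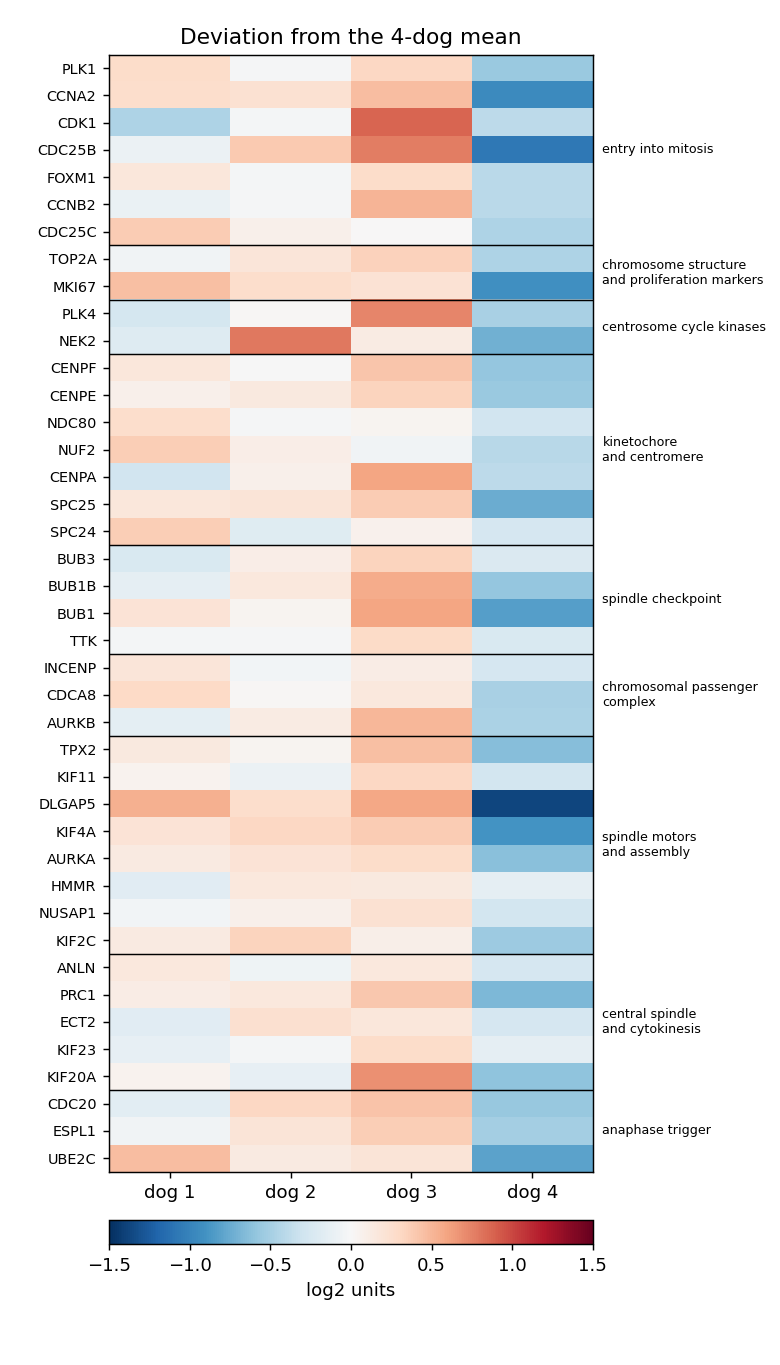
Deviation of each gene's log2 value from its own mean over the 4 dogs (colour, log2 units) for the 41 genes (rows, grouped by role) and the 4 dogs (columns). The column of dog 4 is blue throughout, and that of dog 3 is red for 40 genes, with NUF2 just under 0.

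Set against the rest of the transcriptome, 18 of the 41 genes (43.9%) exceeded the median gene by over 1 log2 unit, where 33.3% of all 17200 detected genes did (limma, Benjamini-Hochberg adjusted p under 0.05). None was called more than 1 unit below, where 35.8% of detected genes were, and 23 were neither (background 30.9%). All 41 members had reads in every dog, as 13834 of the detected genes did, so these shares are not a like background. The shares called among those 13834 genes were not computed. Levels were not corrected for transcript length, so a call above or below is not a measure of transcript numbers. Of the 23, 17 had a mean level above 0 and 6 below 0. The median member level was 1.21, beside -0.02 over detected genes and 0.80 over the genes with reads in every dog. Taking the reference median over the latter genes left 8 members above and put 2 below.

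The members called above included all 5 genes of the central spindle and cytokinesis, both proliferation markers, and 2 each of the kinetochore, checkpoint and anaphase genes. Some of these calls did not hold when 1 dog was left out. KIF20A lost its call without dog 1, 2 or 3 (limma adjusted p = 0.207, 0.147 and 0.293), as did BUB1B. CENPE lost it without dog 1 or 2 (limma adjusted p = 0.0628 and 0.0769) and ESPL1 without dog 2 (limma adjusted p = 0.0687). These 4 genes kept the call without dog 4 (limma adjusted p from 0.000579 to 0.0154). Leaving out a dog also reset the reference median to genes with reads in at least 2 of the kept libraries. Some levels fell although the dog left out lay below the mean over all 4 dogs. KIF20A went from 1.55 to 1.34 without dog 2, where its level was 1.43. BUB1B went from 1.48 to 1.27 without dog 1 (level there 1.35). PLK1 went from 1.47 to 1.22 without dog 2 (level there 1.44). Which calls the reset alone would have cost was not tested. TOP2A had a level of 3.29 ± 0.35 (log2, mean ± SD, n = 4, limma adjusted p = 2.18e-07), ANLN 3.30 ± 0.20 (adjusted p = 4.85e-08) and MKI67 2.66 ± 0.62 (adjusted p = 2.5e-05). Each of the 3 had a positive level in 4 of 4 dogs. Of the 7 entry genes PLK1 alone was called above, at 1.47 ± 0.40 (limma adjusted p = 0.0146), and it lost the call without dog 1, 2 or 3. CCNA2 (1.22 ± 0.64) and CDK1 (1.21 ± 0.62) did not pass, with limma adjusted p = 0.233 for CCNA2 and limma adjusted p = 0.236 for CDK1, although CCNA2 passed without dog 4. The lowest levels were those of CDC25C (-1.30 ± 0.35), NEK2 (-0.86 ± 0.63), SPC24 (-0.51 ± 0.28) and SPC25 (-0.51 ± 0.51), none of them past the test. DLGAP5 was called at 1.66 ± 0.93 (limma adjusted p = 0.0346) but lost the call without dog 1, 2 or 3, and also with an untrended prior or another set of tested genes.

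The spread between dogs was set against that of genes of like level. No member passed the test of variability (F test of the variance against limma's trended prior, Benjamini-Hochberg, smallest adjusted p of a member 0.469), and none of the 17200 detected genes did (background 0%, smallest adjusted p 0.0796). At an unadjusted p under 0.05 the members past it were DLGAP5 (0.00682), CDC25B (0.025) and MKI67 (0.0277), 3 of 41, beside 5.2% of detected genes. SDs of the level ranged from 0.18 for HMMR to 0.93 for DLGAP5, with a median of 0.40, against 0.36 over detected genes and 0.32 over genes with reads in every dog. Over dogs 1 to 3 alone the members had a median SD of 0.20, against 0.28 for all detected genes and 0.24 for those with reads in every dog. The members thus had a larger median SD than the background with dog 4 and a smaller one without it. Unlike the F test, these medians were not matched for level: the members' median level was 1.21, against -0.02 and 0.80 for the backgrounds.

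Depth was lowest in dog 4, whose members rested on 13 to 595 reads, while the other dogs gave 49 to 2397. In exact Poisson 95% intervals, dog 4 lay below all 3 other dogs for 22 of the 41 genes, as it did for 12.2% of genes with reads in every dog. Dog 3 lay above all 3 others for 16, where 7.34% of those genes did. MKI67 in dog 4 had an interval of 445 to 577 normalized reads. Dog 1 stood apart at the top for 1 member, MKI67 (background 8.05%), and dog 2 for 1, NEK2 (background 3.03%). When every library was thinned to the total of dog 4, the members summed to 8748, 9840, 12099 and 5777 reads in dogs 1 to 4, and dog 4 was lowest for 38 genes. The ratio of dog 4 to dog 3 ran from 0.233 for DLGAP5 to 0.791 for HMMR, with a median of 0.494. Its median over genes with reads in every dog was 1.02. It was under 0.5 for 21 members, and the share of all genes under 0.5 was not computed.

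**Figure D3:**
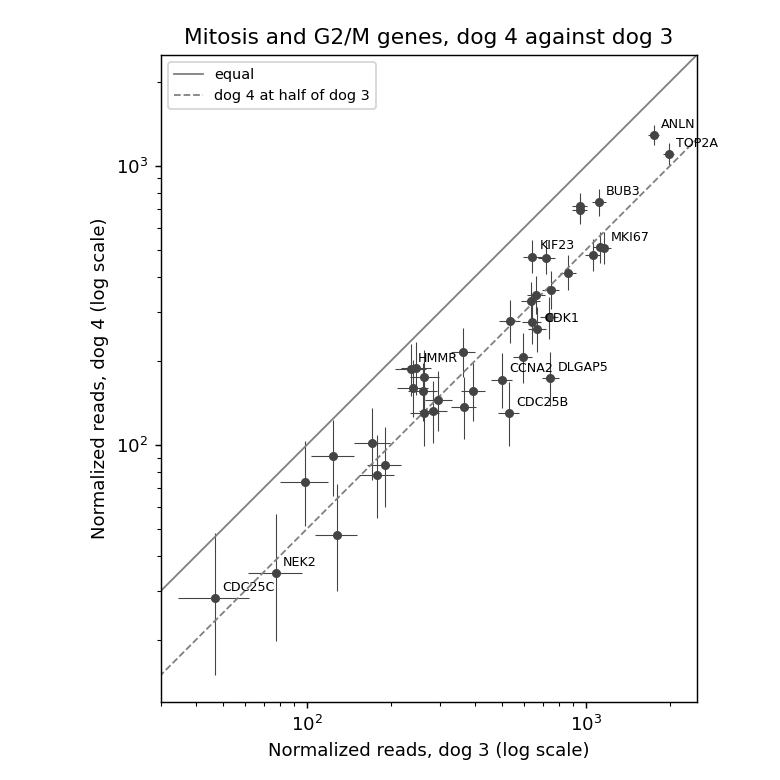
Normalized reads of the 41 mitosis and G2/M genes in dog 4 (y axis, log scale) and dog 3 (x axis, log scale), with exact Poisson 95% intervals; the solid line marks equal values and the dashed line a ratio of 0.5. All 41 lie below the solid line and 21 below the dashed line, and the matching shares over all genes were not computed.

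How strand was treated in read counting is not given in the sources used here. Whether reads from overlapping genes were kept apart is therefore not known. The RefSeq annotation is of another build than the one named for the reads. In it 11 of the 41 members overlap another protein-coding gene, among them CCNA2, CDC25C, AURKA and KIF4A. Among the 30 that do not, dog 4 was lowest for 27 and dog 3 highest for 20.

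Other genes of the mitotic apparatus, from lists that hold none of the members, often had the same extreme dogs. For these and the lists that follow, the background is that of all detected genes. By the level test 33.3% of those were above, 35.8% below and 30.9% neither. Dog 4 was lowest for 28.8% of them and highest for 36.8%, and dog 3 was highest for 23.4%. The other kinetochore and centromere genes (27 of 31 measured) were lowest in dog 4 for 19 and highest in dog 3 for 17, with median deviations of 0.01, 0.14, 0.28 and -0.37 in dogs 1 to 4. By the level test 3 were above, 3 below and 21 neither. ZW10 (2.31 ± 0.27), KNL1 (2.12 ± 0.24) and KNTC1 (2.00 ± 0.40), which serve the outer kinetochore and the checkpoint, were above, and CENPW (-2.02 ± 0.34) and OIP5 (-2.10 ± 0.33) were below.

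The other mitotic kinesins and spindle genes showed the same lowest dog. Dog 4 was lowest for 15 of 20 and dog 3 highest for 9, and the medians were 0.03, 0.09, 0.18 and -0.32. Of these genes 8 were above and 12 neither. NUMA1 (4.49 ± 0.22), CKAP5 (3.96 ± 0.20), CLASP1 (3.01 ± 0.25) and ASPM (3.01 ± 0.34), which organize spindle poles and microtubule ends, were above, and KIF18B (-0.37 ± 0.41) and KNSTRN (-1.13 ± 0.35) did not pass. Of 12 measured CDK1 regulators, dog 4 was lowest for 9 and highest for none. WEE1, the kinase that inhibits CDK1, was above at 1.91 ± 0.19, as were CCNH (1.75 ± 0.22) and ENSA (1.40 ± 0.34), while CKS1B (1.17 ± 0.33), CDC25A (-0.47 ± 0.29) and CDKN3 (-1.27 ± 0.09) were among the 9 that were neither.

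Condensin, which compacts chromosomes, divided by subunit. NCAPD2 had 1177, 1541, 1854 and 982 normalized reads in dogs 1 to 4 and NCAPG had 919.5, 941, 1159 and 629, both of them subunits of condensin I, and dog 3 was highest and dog 4 lowest. NCAPH (193, 263, 332 and 156), the third subunit particular to condensin I, had the same extremes. The condensin II subunits NCAPD3 (400.1, 504, 602 and 698) and NCAPH2 (848, 972, 1018 and 1065) had the opposite extreme, with dog 4 highest, and so did the shared subunit SMC4 (1092, 925, 1168.5 and 1256). SMC4 and the condensin II proteins are also present in interphase nuclei, but whether that bears on these values was not tested. The split was not clean, since NCAPG2 of condensin II and the shared SMC2, named after their values were seen, deviated by -0.70 and -0.60 in dog 4. Of the 8 condensin genes 7 were called above and 1, NCAPH, neither.

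Cohesin, the ring that holds sister chromatids and also folds interphase chromatin, showed no such order over the list. Its 13 genes had median deviations within 0.04 of 0 in every dog, with dog 4 lowest for 4 and highest for 5. The 4 genes lowest in dog 4, named after their values were seen, were SGO1, SGO2, ESCO2 and CDCA5, which guard or establish cohesion between sister chromatids, with deviations of -1.04, -0.43, -0.94 and -0.70 there. SGO1 had 86.9, 107, 215 and 36.9 normalized reads and CDCA5 79.0, 118, 120.3 and 45.5. PDS5A (4.21 ± 0.11), NIPBL (3.94 ± 0.30), STAG2 (3.43 ± 0.17) and WAPL (3.16 ± 0.11), which make up or load and release the ring, were the highest of 10 called above.

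The subunits and regulators of the anaphase-promoting complex varied less between dogs. Over its 17 genes the median SD was 0.20 and the median deviations were 0.03, 0.05, 0.17 and -0.10, with dog 4 lowest for 10. Its subunits ANAPC4 (3.69 ± 0.12), CDC27 (3.04 ± 0.05), ANAPC1 (2.89 ± 0.20) and CDC16 (2.43 ± 0.29) were among 9 called above, and ANAPC13 (-1.06 ± 0.31) and CDC26 (-1.15 ± 0.25) among 8 that were neither. Among the genes that turn the complex on, UBE2C and CDC20 had SDs of 0.56 and 0.46 and were lowest in dog 4. The other co-activator, FZR1, had an SD of 0.16, and the other ubiquitin-conjugating enzyme, UBE2S, had 577, 418, 586 and 819.7 normalized reads, highest in dog 4. Both were named after their values were seen.

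Regulators that bind the promoters of mitosis genes deviated less in dog 4 at the median (-0.20) than the mitosis genes did (-0.48), but went both ways, with dog 4 lowest for 6 of the 13 genes and highest for 5. MYBL2, which encodes B-MYB, had 1392, 1556, 1268 and 655 normalized reads, with dog 4 apart at the bottom, like MKI67. RBL2, the pocket protein p130 of the DREAM complex, had 789, 999, 858 and 1043, highest in dog 4, and DYRK1A, the kinase that assembles DREAM, had 809.6, 885, 998.5 and 1021. Of the 13 genes of the DREAM and B-MYB list 6 were above, 1 (LIN52, -2.05 ± 0.30) below and 6 neither, LIN37 among the last at -0.73 ± 0.22, and RBBP4 was highest in dog 3 and lowest in dog 4. The CCAAT-binding NF-Y subunits showed no common order: NFYA (1.48 ± 0.19) was above, and NFYC (0.93 ± 0.20) and NFYB (0.35 ± 0.23) were neither.

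Genes of DNA replication and the G1/S transition shared the extreme dogs of the mitosis genes. Of 28 measured genes, dog 3 was highest for 22 and dog 4 lowest for 18, and the median deviations were -0.07, 0.00, 0.40 and -0.32. MCM4, a subunit of the replicative helicase, had 1426, 1846, 2617 and 894 normalized reads, and MCM6 had 2357, 2156, 3168 and 1715. RRM1, a subunit of ribonucleotide reductase, had 1256, 1299, 1902 and 1076. Levels were above the median gene for 16, below for 1 (E2F2, -2.55 ± 0.52) and neither for 11, with MCM6 (3.85 ± 0.36), MCM4 (3.32 ± 0.63), MCM7 (3.22 ± 0.30) and RRM1 the highest. CCNE2 (-1.32 ± 0.25) stood apart in dog 3. Dog 1 differed between the lists: its median deviation was 0.11 for the mitosis genes and -0.07 for the replication genes, beside 0.01 over all detected genes.

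**Figure D4:**
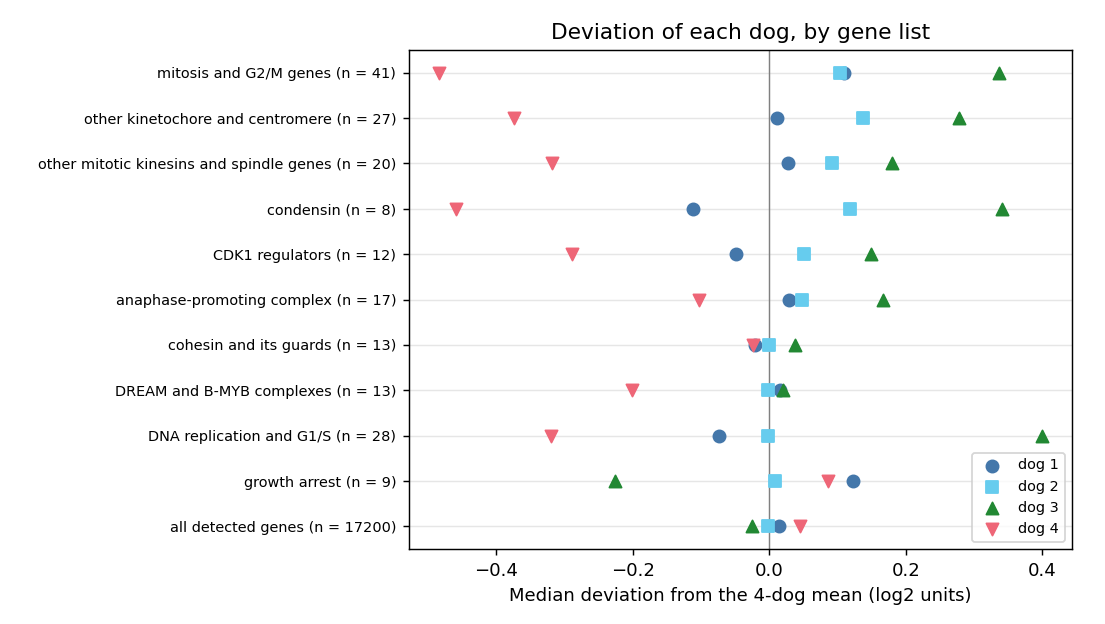
Median deviation from the 4-dog mean (x axis, log2 units) of each gene list (rows, with the number of detected genes) in each dog. Dog 4 is at the left and dog 3 at the right for the mitosis genes and the replication genes, the cohesin genes lie near 0, and the growth arrest genes have dog 3 at the left.

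At the median, genes of growth arrest had dog 3 at the other end (deviation -0.23), but the list was split. CDKN1A, which encodes the CDK inhibitor p21, had 3633, 1311, 1019.5 and 2316 normalized reads in dogs 1 to 4, lowest in dog 3 and highest in dog 1. RB1, the retinoblastoma gene, had 1424, 1188.5, 978.5 and 1815, and MDM2, which encodes a ubiquitin ligase, had 3165, 2032, 1979 and 3097, again lowest in dog 3. The order was not a mirror image of the mitosis genes, because dog 1 had the most CDKN1A while its mitosis genes lay between those of dogs 3 and 4. Of 9 measured genes dog 3 was lowest for 5 and highest for 3, among the latter GADD45A, with a deviation of 0.66. Over all detected genes dog 3 was lowest for 31.1% and highest for 23.4%. Levels were above for 5, with MDM2 (3.98 ± 0.38), CDKN1A (3.54 ± 0.83) and RB1 (3.06 ± 0.39) the highest, and neither for 4, including BTG2 (-0.36 ± 0.18) and CDKN2D.

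Some markers of other cell types also set dog 4 apart. The 4 measured epithelial genes summed to 0.625, 0.739, 2.10 and 58.2 CPM in dogs 1 to 4, nearly all of it KRT18, a keratin of simple epithelia, with 9, 9, 25 and 435 reads, while CDH1 had 0 reads and EPCAM 1 read in dog 1. The 4 measured adipocyte genes summed to 4.37, 8.37, 8.81 and 15.7 CPM, with LEP at 0, 1, 4 and 37 reads and CIDEC at 0 in every dog. The 6 endothelial genes summed to 22.0, 8.43, 19.7 and 6.96 CPM, with VWF at 380, 62, 214 and 12 reads and PECAM1 at 0. The 7 leukocyte genes ran from 353 to 457 CPM, nearly all CD79A, and the 10 MSC markers from 31856 CPM in dog 4 to 51708 CPM in dog 3. Most of the MSC marker sum was COL1A1, and the other 9 MSC markers summed to 7659, 6222, 6307 and 8636 CPM in dogs 1 to 4, with the most in dog 4. The part of these differences in the lower mitosis values of dog 4 was not tested.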

How the data were processed

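Per the labels' protocols, stranded total RNA libraries were made after ribosomal depletion from 10 ng of RNA per culture. FastQC 0.12.1, Trimmomatic 0.39, STAR 2.7.11a, DESeq2 and the build CanFam3.1 are named in the submitters' processing notes. Counting software, strand handling and gene model version were not given in the sources used here. The deposited values are variance-stabilized by the authors on a log2 scale, per the file headers, in 1 column per library; columns were matched to dogs by number, and 0 columns were left unused.

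The closed inverse of the transformation gave whole reads for 100% of values above the lowest (tolerance 0.01 reads), with size factors of 1.39, 1.08, 1.05 and 0.461. Reads served for depth, sums, thinning and intervals. Tests ran on the log2 values in limma 3.58.1 (R 4.3.3): an intercept-only fit over all 17200 detected genes with a trended prior, a distance of 1 and a threshold of 0.05, and an F test of each variance against the prior. Both were run on data simulated with independent normal noise from the fitted prior. Such data hold neither shifts shared by a library nor counting noise, so they check the code and not the fit of the model here. The p-values of the level test take the spread between the 4 cultures, moderated by the prior, as the error. Those of the F test compare that spread with the prior. The members and all 15 other lists were chosen with earlier results of these data known. Values in every dog were to be given for role-wise extremes, uncalled members and libraries standing apart, and were given for all members; of other lists, up to 4 highest and 2 lowest genes were named, and further ones after their values were seen. Promoter sequences and transcript lengths were not used here, so the planned motif search and per-length alternative were not run. Some genes that this rule would name are not reported here.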

Additional observations from a re-analysis of the deposited data

Results flagged for a closer look

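A library was listed here when its gap to the nearest of the other 3, divided by the range of the 4, exceeded Dixon's 95% critical value for 4 samples; chance alone lists about 1 in 20 groups. Of the genes with reads in every dog 5.99% met this, and 1.81% did with dog 4 as the lowest library. Among the 41 mitosis genes this held for 4, each time with dog 4 lowest: KIF4A (ratio 0.868), AURKA (0.847), DLGAP5 (0.834) and CCNA2 (0.833). The median deviation of the DREAM and B-MYB list was also apart in dog 4 (0.901), at -0.20 there and within 0.02 of 0 in the other dogs. COL1A1 was lowest in dog 4 (0.999), with 647793, 658671, 658936 and 376360 normalized reads in dogs 1 to 4. CD68 (0.844) and KRT18 (0.837) were highest in dog 4. CCNE2 (0.851) was highest in dog 3.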

How the results depend on the processing

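The 41 genes were lowest in dog 4 for 37 to 41 and highest in dog 3 for 28 to 34 under every alternative run that kept those dogs (27 and 20 of the 30 genes that overlap no coding gene, an alternative chosen after seeing the data). Without 1 dog at a time the median deviations ran from -0.10 to 0.21 in dog 1, -0.07 to 0.23 in dog 2, 0.15 to 0.39 in dog 3 and -0.52 to -0.39 in dog 4. The median SD ran from 0.20 without dog 4 to 0.47, and the median level from 0.74 to 1.12. Level calls depended on the yardstick. Of 18 genes above, 8 were left, with 2 below and a median level of 0.39, when the median came from genes with reads in all 4 libraries, which is a higher yardstick by construction. It also turned the sign of CCNB2 (-0.36), PLK4 (-0.19), NDC80 (-0.14), TTK (-0.29), AURKB (-0.40), CDCA8 (-0.19), KIF2C (-0.66), AURKA (-0.28), NUSAP1 (-0.37), HMMR (-0.30) and UBE2C (-0.72). A distance of 2 left 7 above, and a distance of 0.5 gave 22 above and 1 below. Thinning gave 1 below and turned KIF2C (-0.016) and UBE2C (-0.10), and the cause was not tested. Without 1 dog, 12 to 20 genes were above and 0 to 1 below, and KIF2C ran from -0.20 to 0.11 and UBE2C from -0.31 to 0.14. The median in these runs came from genes with reads in at least 2 of the kept libraries, a stricter set, so the yardstick also changed. PLK1, BUB1B and DLGAP5 lost their calls after thinning and without dog 1, 2 or 3. KIF20A lost its call without dog 1, 2 or 3, CENPE without dog 1 or 2 and ESPL1 without dog 2. Quantile normalization and log2 of normalized reads plus 1 changed no call among the 41. The per-length alternative and the promoter motif search were not run. No paired analysis was possible because the samples form 1 group. Counts of 13 reads, as for CDC25C in dog 4, limit what can be said of sparse genes.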
